A study of Mus musculus with 122 samples.

Results

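The 10 genes described here, Egr1, Egr2, Egr3, Fos, Fosb, Fosl1, Jun, Junb, Ier2 and Ier3, are immediate early genes, and they were read from the normalised read counts of 52459 genes in mouse embryonic stem cells. They were chosen by name, with the knowledge that Egr1 was higher after doxycycline in both chimera lines and not in the CTCFL line. The values of doxycycline-treated against untreated cells in the LCL, CLC and CTCFL lines are therefore given as a description, without a test. No threshold was applied in the choice.

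The study compared CTCF, the zinc finger protein that anchors chromatin loops, with its testis-specific paralog CTCFL and with chimeras of both. All cells were E14Tg2a embryonic stem cells (129/Ola, XY) with endogenous CTCF fused to an auxin-inducible degron (CTCF-AID), the auxin receptor Tir1 and 1 FLAG-tagged, mRuby2-tagged transgene at the Tigre locus under doxycycline (Dox) control. The transgene codes for CTCF, CTCFL, LCL (the CTCF zinc fingers between CTCFL ends) or CLC (the CTCFL zinc fingers between CTCF ends). Cells were untreated (U), given 500 µM IAA, the auxin that degrades endogenous CTCF (I), given 1 µg/ml Dox (D), or given both (ID). The labels give 24 h for treated RNA-seq libraries, while the treatment protocol gives 2 days. PolyA RNA was sequenced in 38 libraries, with 2 or 3 libraries in each of the 16 groups. The labels do not say whether libraries of a group came from separate cultures or from more than 1 clone, so p-values measure the spread between these libraries, which may be technical.

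Immediate early genes are transcribed within minutes of a stimulus without new protein synthesis. In the best known route, growth factor signalling through RAF, MEK and ERK phosphorylates ELK factors that sit with the serum response factor SRF at CArG boxes in these promoters. FOS and JUN proteins pair to form AP-1, EGR proteins are zinc finger factors that bind GC-rich sites and are held back by the NAB corepressors, and DUSP and SPRY proteins, themselves made in response to ERK, feed back on the pathway. Embryonic stem cells are often kept with an inhibitor of MEK, since ERK activity favours exit from the naive state. The stated culture protocol gives serum, LIF, 3 µM CHIR99021 and 1 µM of the MEK inhibitor PD0325901 for all 4 lines and all conditions. The RNA-seq column names of the LCL and CLC lines carry a short label for culture with CHIR99021 and a MEK inhibitor. Those of the CTCF and CTCFL lines do not. Whether the medium differed between the lines was not tested.

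Normalised counts are read counts scaled by the authors. A single size factor per library was found in 36 of the 38 libraries. Reads recovered there numbered 6847072 to 49716771, the lowest in replicate 3 of CTCFL D. Replicate 2 of CTCFL I and of CTCFL ID gave no such factor and stayed in the tests on normalised counts. All 10 pluripotency genes examined, such as Pou5f1 and Nanog, were present in every group. Their summed normalised counts were 96733 to 204214 per library in the CTCF and CTCFL lines and 210379 to 309308 in LCL and CLC. The summed count of 12 markers of other cells was 3622 to 4757 in the libraries of the CTCF and CTCFL lines. It was 814 to 1506 in those of the LCL and CLC lines. Gata4, Gata6 and Sox17 were higher in the CTCF and CTCFL lines. Pax6 went the other way, with medians of 7.6 in CTCF and 3.75 in CTCFL against 18.6 in LCL and 18.8 in CLC. Of the 12 markers, Col1a2 was listed at 0 in LCL ID and Fgf5 in CLC I. Ctcfl counts followed the labels. In the CTCFL line they were 193 to 225 in U, 7569.5 to 9398 in D and 5455 to 5572 in ID. In LCL they were 27.2 to 36.5, 384 to 416 and 1120 to 1225 in the same order. In CLC they were 41.4 to 42.7, 1791 to 1829 and 2544 to 3441. ID thus lay below D in CTCFL and above D in LCL and CLC, without overlap. In the CTCF line, Ctcf counts were 3549.7 to 3849.9 in the libraries labelled D and 4691 to 4712 in U, so that they do not show the transgene, and a Dox effect in this line is one between libraries labelled so. IAA acts on the protein, and the RNA gives no check of it.

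For the motifs they hold, 5 stretches of 30 bases near these genes are shown (GRCm38.p6, RefSeq genome, strand of the gene unless stated). The CArG box (SRF motif, searched on both strands) was found in the promoters of 1 of the 6 members with a RefSeq promoter entry, Egr2, and in 1.81% of all 27025 genes with an entry (1.55% of the 11590 with a mean count of at least 10). Promoters reach from 250 bases before to 50 after a start site. Both boxes, in capitals, lie within the Egr2 gene outside its annotated exons and upstream of its later start sites, at chr10:67537484-67537513 and chr10:67537787-67537816.
Egr2 CArG box, first: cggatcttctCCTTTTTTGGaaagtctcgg
Egr2 CArG box, second: gttcctcagtCCATATATGGgcagcgacgt

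The EGR motif (GCGTGGGCG or GCGGGGGCG, both strands) was found in 1 of the 6, Fosb, just outside the gene at chr7:19310077-19310106 on the minus strand, and in 3.93% of all genes with an entry (7.46% of the 11590). The CRE (TGACGTCA, 2.03% and 3.46%) and the AP-1 motif (TGANTCA, 8.97% and 6.06%) were found in 0 of the 6. Neither the presence nor the absence of these letters shows that a factor binds. Entries for Egr1, Egr3, Fosl1 and Ier2 were not used here.
Fosb EGR motif: gtgacgcaagcGCGGGGGCGggtcccggag

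The core of the CTCF motif (CCANNAGNNGGC, both strands) was searched within the FLAG sites near the members, described further on. It was found at Junb (chr8:84975599-84975628, plus strand, in an intron of a Junb transcript) and at Egr2 (chr10:67536016-67536045, minus strand, intron). A further match, not shown, lay in a Junb exon (chr8:84976224-84976253, minus strand), within the Junb site of LCL ID alone.
Junb CTCF core: ctaaggaagCCAGAAGAGGGCattgcatcc
Egr2 CTCF core: ccagtgccaCCAGGAGCCGGCttgtcgccg

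Egr1 (ENSMUSG00000038418, chromosome 18 from 34859823 to 34864984, plus strand), the best studied EGR factor, had its largest differences in the chimera lines. In the LCL line its normalised counts were 140.2 and 162 in U, 25.6 and 46.1 in I, 448 and 436 in D and 131 and 143 in ID. In the CLC line they were 236 and 231 in U, 33.99 and 37.2 in I, 502 and 450.4 in D and 428 and 468 in ID. In both lines, the I libraries lay below all others and the D libraries above U, without overlap, while ID overlapped U in LCL and lay far above U in CLC.

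The other lines covered a narrower range. In the CTCF line Egr1 counts were 229.7 and 239 in U, 263, 225 and 199 in I, 181, 229 and 168 in the libraries labelled D and 174, 184 and 182 in those labelled ID. In the CTCFL line they were 350.1, 300.4 and 331 in U, 309.6, 307 and 297 in I, 210.2, 263 and 228 in D and 219 and 255 in ID. I overlapped U in both lines, and D and ID lay below U without overlap.

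**Figure D1:**
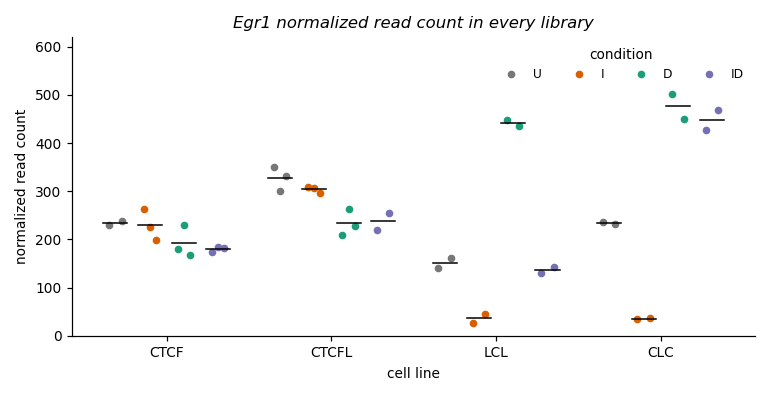
Normalised read count of Egr1 in every library (points) and the group mean (bars), by cell line on the x axis and condition by colour. In LCL and CLC the I libraries (25.6 to 46.1) sit below all others, and the D libraries (436 to 502) above every library of the CTCF and CTCFL lines.

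Ordered by the group mean, CLC D (476 ± 36.4, SD, n = 2), CLC ID (448 ± 28.6, SD, n = 2) and LCL D (442 ± 8.32, SD, n = 2) came first, each overlapping the next, with a gap before CTCFL U (327 ± 25.1, SD, n = 3). CTCFL U and I overlapped. From CTCFL ID (237 ± 25.3, SD, n = 2) to CTCF ID (179.8 ± 5.52, SD, n = 3), each of the 7 groups in that order overlapped its neighbour, which were CTCFL ID, CTCF U, CTCFL D, CLC U, CTCF I, CTCF D and CTCF ID. LCL U (151 ± 15.2, SD, n = 2) overlapped LCL ID (137 ± 8.46, SD, n = 2), and LCL I (35.9 ± 14.5, SD, n = 2) overlapped CLC I (35.6 ± 2.28, SD, n = 2) at the bottom.

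IAA was tested on log2(value + 1) with limma, in 1 fit per line over all its conditions, and a call required both a log2 difference beyond 1 and a p that stayed under 0.01 after Benjamini-Hochberg adjustment over all genes. These I versus U comparisons share the U libraries with the description that chose the genes. Egr1 fell after IAA by 2.10 on the log2 scale (SE 0.25, adjusted p = 1.01e-06) in LCL, to 23.8% of U, and by 2.68 on the log2 scale (SE 0.14, adjusted p = 8.94e-06) in CLC, to 15.2% of U. The difference was -0.04 (SE 0.15, adjusted p = 0.856) in the CTCF line and -0.10 (SE 0.15, adjusted p = 0.623) in the CTCFL line. The lines differed in this: in 1 fit over all 38 libraries, chosen for I versus U after the data were seen, the IAA difference in LCL was lower than that in CTCFL by 2.00 (SE 0.24, adjusted p = 9.90e-07) and that in CLC by 2.58 (SE 0.24, adjusted p = 6.06e-09).

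Transgene induction in CTCF-depleted cells (ID versus I) shares no library with the comparison that chose the genes. Egr1 rose by 1.96 (SE 0.25, adjusted p = 2.4e-06) in LCL and by 3.62 (SE 0.14, adjusted p = 1.78e-05) in CLC, with limma, and no ID library overlapped an I library. It was -0.34 (SE 0.14, adjusted p = 0.0686) in the CTCF line and -0.36 (SE 0.16, adjusted p = 0.0853) in the CTCFL line, where ID libraries lay below I libraries without overlap but the difference did not pass. Relative to U, Egr1 in ID stood at 90.5% in LCL, 191.7% in CLC, 76.8% in CTCF and 72.6% in CTCFL.

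The test of the difference between lines put LCL above CTCFL by 2.32 (SE 0.25, adjusted p = 1.48e-08) and above CTCF by 2.30 (SE 0.24, adjusted p = 7.83e-09), with limma over all 38 libraries. It put CLC above CTCFL by 3.98 (SE 0.25, adjusted p = 2.33e-13) and above CTCF by 3.96 (SE 0.24, adjusted p = 1.41e-13). CLC also lay above LCL by 1.66 (SE 0.27, adjusted p = 2.03e-05), in a comparison chosen after the data were seen. CTCF minus CTCFL, at 0.02 (SE 0.23, adjusted p = 0.964), was not called.

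As a description of the values that chose it, Egr1 in D was 292.8% of U in LCL, 203.6% in CLC and 71.5% in CTCFL, with log2 differences of 1.55 (SE 0.25), 1.02 (SE 0.14) and -0.49 (SE 0.15). The CTCF line was not used in the choice, and there the libraries labelled D differed from U by -0.29 (SE 0.15, adjusted p = 0.203) with limma.

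Egr2, a relative of Egr1 known from the hindbrain and from myelinating cells, and Egr3 were near the limit of what these libraries count. Egr2 was 47.1, 54.4 and 58.1 in U of the CTCFL line, 34.5, 43.9 and 19.9 in I, 15.8, 19.5 and 3.75 in D and 29.5 and 16.1 in ID. In the CTCF line it ranged from 6.05 to 29.5 over 11 libraries, in LCL from 2.28 to 14.1 and in CLC from 0 to 12.8, each over 8. It therefore passed the filter, a mean of at least 10 in the line, in the CTCF and CTCFL lines, and was called in neither. Egr3 ranged from 1.09 to 33.5 in the CTCFL line, where it passed the filter and was not called, and reached 11.6 in CTCF, 24.0 in 1 library of LCL ID and 5.93 in CLC. Leaving out replicate 2 of CTCFL ID (14.1) left replicate 1 (1.09) alone, and Egr3 was then called in ID versus I at -3.38 (adjusted p = 0.00871, limma). Per kilobase of exon, Egr2 and Egr3 were the lowest of the 10 genes in U in each line (0.699 to 15.7 normalised counts per kb over both genes and the 4 lines), and Ier2 the highest (1134 to 1776).

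**Figure D2:**
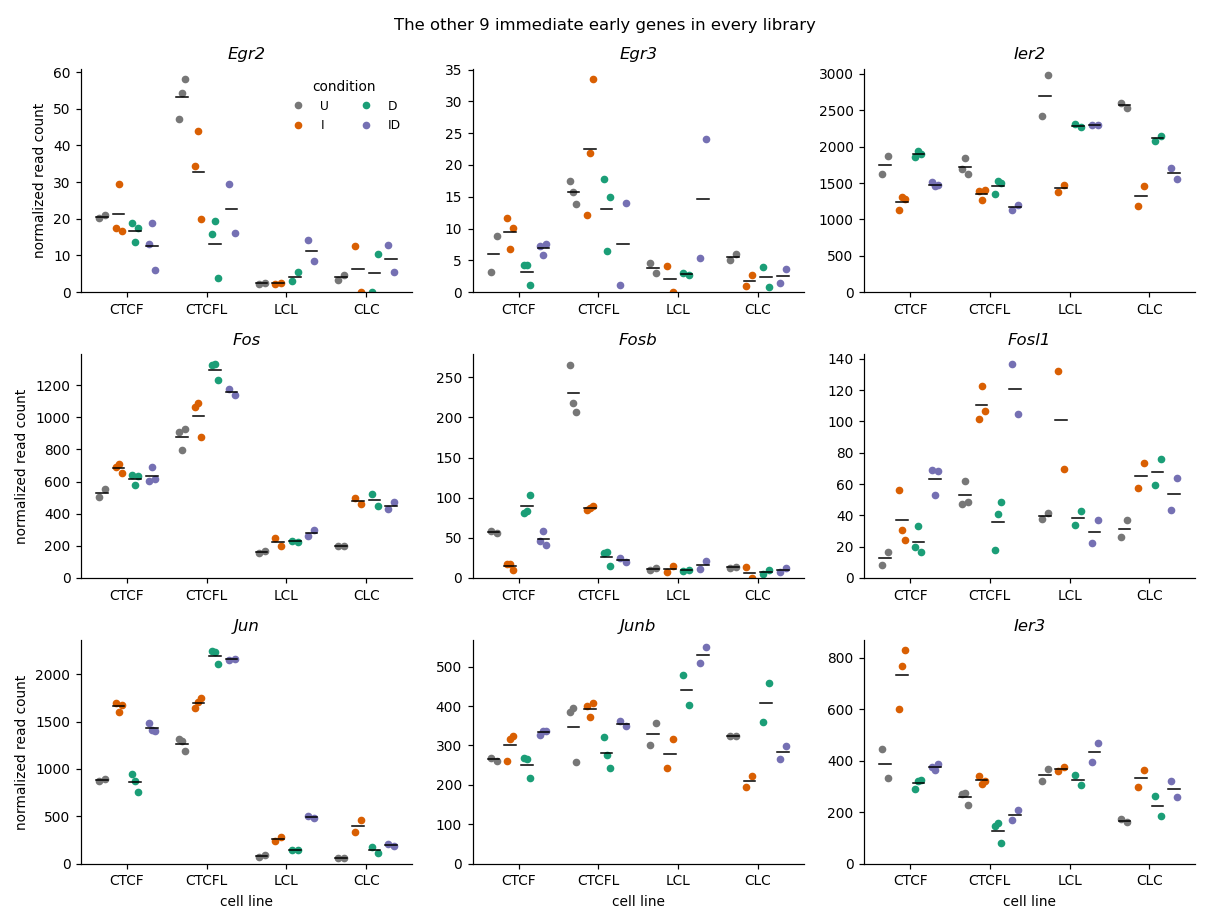
Normalised read counts of the other 9 genes in every library (points) with group means (bars), by cell line on the x axis and condition by colour, each panel with its own scale from 0. Jun, Fos and Fosb sit higher in U of the CTCF and CTCFL lines than in U of LCL and CLC.

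Of the FOS family, Fos (ENSMUSG00000021250, chromosome 12 from 85473890 to 85477273), the AP-1 subunit after which the family is named, had counts of 200.1 and 202 in U of CLC, 498 and 457 in I, 522 and 446 in D and 427 and 472 in ID. All treated CLC libraries lay above U. In LCL it was 153 and 169 in U, 252 and 201.4 in I, 229.6 and 225 in D and 262 and 301 in ID. Fos rose after IAA in CLC by 1.24 (SE 0.13, adjusted p = 0.000154), with limma, and this exceeded the difference in CTCFL by 1.05 (SE 0.16, adjusted p = 1.7e-05). That comparison between lines fell under a log2 value of 1 without replicate 3 of CTCFL I (0.95) or replicate 1 of CLC I (0.99). In LCL the IAA difference was 0.48 (SE 0.18, adjusted p = 0.0363), in CTCF 0.38 (SE 0.09, adjusted p = 0.00488), short of the fold part of the call, and in CTCFL 0.20 (SE 0.10, adjusted p = 0.108).

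Induction after depletion left Fos uncalled in all 4 lines, with ID versus I between -0.11 in CTCF and 0.32 in LCL. In the CTCF and CTCFL lines its counts were far higher throughout, at 501 to 710.0 and 797 to 1332. As a description, the D versus U difference was 1.26 (SE 0.13) in CLC, 0.50 (SE 0.18) in LCL and 0.56 (SE 0.10) in CTCFL. Fos was thus higher with each of the 3 transgenes. In the CTCF line the libraries labelled D also lay above U without overlap. That difference, 0.23 (SE 0.09, adjusted p = 0.107) with limma, was not called.

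Fosb (ENSMUSG00000003545, chromosome 7 from 19302696 to 19310051, minus strand), a second partner of JUN proteins and the gene with the EGR motif shown above, went opposite ways in the parent lines. In the CTCF line it was 58.5 and 56.3 in U, 17.4, 17.0 and 10.1 in I, 81.0, 82.9 and 103 in the libraries labelled D and 45.8, 58.7 and 40.9 in those labelled ID. In the CTCFL line it was 265, 218 and 207 in U, 84.8, 86.8 and 89.6 in I, 30.6, 32.5 and 15.0 in D and 25.1 and 20.1 in ID. I lay below U in both lines, and ID lay above I in CTCF and below I in CTCFL, without overlap.

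Fosb fell after IAA by 1.92 on the log2 scale (SE 0.28, adjusted p = 9.51e-05) in CTCF and by 1.38 on the log2 scale (SE 0.32, adjusted p = 0.00146) in CTCFL, with limma. The latter call was lost without replicate 1 of CTCFL U (-1.28, adjusted p = 0.0126). In ID versus I it rose by 1.66 (SE 0.25, adjusted p = 0.000170) in CTCF and fell by 1.91 on the log2 scale (SE 0.36, adjusted p = 0.000204) in CTCFL, and the difference between these lines, chosen after the data were seen, was 3.57 (SE 0.78, adjusted p = 0.00163). Without replicate 2 of CTCFL ID, that difference was 3.42 and missed the threshold (adjusted p = 0.0129). In LCL (7.57 to 21.2) it was tested and not called, and in CLC (0 to 14.2) it did not pass the filter. As a description, Fosb in D stood at 11.3% of U in CTCFL.

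Fosl1, which codes for FRA1, had higher counts in I than in U in all 4 lines, without overlap. They went from 8.51 and 16.6 to 56.1, 30.7 and 24.3 in CTCF, from 47.1, 62.3 and 48.8 to 102, 123 and 107 in CTCFL, from 37.6 and 41.4 to 132 and 69.6 in LCL and from 26.2 and 36.8 to 57.2 and 73.5 in CLC. The log2 differences lay close together, and only that in CTCF passed with limma (1.47 (SE 0.41, adjusted p = 0.00984)). The others were 1.06 (SE 0.34, adjusted p = 0.0161) in CTCFL, 1.26 (SE 0.38, adjusted p = 0.0122) in LCL and 1.04 (SE 0.31, adjusted p = 0.0244) in CLC, and no difference between lines in this comparison was called. The call in CTCF was lost without any 1 of 8 of the 11 libraries, at log2 values of 1.03 to 1.56 and adjusted p of 0.0101 to 0.119. These were replicate 1 of U, replicates 1 and 2 of I, replicates 1 and 3 of D and all 3 of ID. It was lost also in a fit with the replicate number as a block (1.60, adjusted p = 0.0110). With edgeR on recovered reads the call in CTCF was lost too (1.49, adjusted p = 0.0175). Both edgeR (1.35, adjusted p = 0.00596) and DESeq2 (1.33, adjusted p = 0.00620) called Fosl1 in LCL.
In LCL, Fosl1 was called without replicate 2 of I (1.72, adjusted p = 0.00587) or either ID replicate (adjusted p = 0.00767 and 0.00902). In CTCFL it was called without replicate 1 or 3 of D (1.06, adjusted p = 0.00346 and 0.00974).

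Fosl1 in ID was 68.7, 52.8 and 68.1 in the libraries so labelled of CTCF, 136 and 105 in CTCFL, 22.4 and 36.7 in LCL and 43.6 and 63.8 in CLC. It stood below I in LCL and overlapped I in the other lines. It fell by 1.71 on the log2 scale (SE 0.38, adjusted p = 0.00110) in LCL, with limma, and this call was lost without replicate 1 of LCL I (-1.25, adjusted p = 0.0392) or replicate 1 of LCL ID (-1.36, adjusted p = 0.0194). LCL differed from CTCF by -2.54 (SE 0.55, adjusted p = 0.000506), which without replicate 1 of LCL I was -2.08 (adjusted p = 0.0102).

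Jun (ENSMUSG00000052684, chromosome 4 from 95049034 to 95052222, minus strand), the main partner of FOS in AP-1, was the member with the widest gap between lines. In U it was 874 and 890.4 in CTCF, 1312, 1293 and 1186 in CTCFL, 66.1 and 92.0 in LCL and 64.2 and 55.8 in CLC, so that the parent lines were 15.98 times higher than the chimera lines in the mean. Of the 10 members, 5 did not overlap in U between the CTCF and CTCFL lines and the LCL and CLC lines (Egr2, Fos, Fosb and Jun higher and Ier2 lower in the former). The same held for 50.5% of 16480 genes. The column names of both chimera lines are written in another form than those of the parents. They also carry the label for culture with a MEK inhibitor described above, which those of the parents lack. Line, culture medium and preparation cannot be told apart, in this or in any other comparison of a chimera line with a parent line.

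After IAA, Jun was 1697, 1606 and 1677 in CTCF, 1644, 1706 and 1753 in CTCFL, 241 and 279.9 in LCL and 332 and 457 in CLC. No I library overlapped U of its own line. Jun rose by 1.72 (SE 0.19, adjusted p = 5.98e-07) in LCL and 2.68 (SE 0.23, adjusted p = 6.25e-05) in CLC, with limma. The differences in CTCF, 0.91 (SE 0.09, adjusted p = 3.46e-06), and CTCFL, 0.43 (SE 0.07, adjusted p = 6.39e-05), passed the adjusted p and not the fold part of the call. The difference exceeded that in CTCFL by 1.29 (SE 0.19, adjusted p = 1.71e-05) in LCL and by 2.25 (SE 0.19, adjusted p = 9.89e-10) in CLC, and that in CTCF by 1.77 (SE 0.20, adjusted p = 2.2e-07) in CLC. In these lines Jun and Egr1 thus moved in opposite directions with IAA.

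In ID, Jun was 501 and 484 in LCL, above I, and 205 and 189.6 in CLC, below I, without overlap in either. It was 1487, 1414 and 1399.9 in the CTCF libraries labelled ID and 2151 and 2163 in CTCFL. The ID versus I differences were 0.92 (SE 0.19, adjusted p = 0.000615) in LCL and -0.98 (SE 0.23, adjusted p = 0.0245) in CLC, neither of them called with limma, while CLC minus LCL was -1.90 (SE 0.21, adjusted p = 6.02e-08). LCL minus CTCF was 1.13 (SE 0.19, adjusted p = 2.27e-05) and CLC minus CTCFL was -1.32 (SE 0.20, adjusted p = 3.69e-06). Without replicate 2 of LCL I, Jun was called in LCL (1.03, adjusted p = 0.00274), and without replicate 1 of CLC I it was called in CLC (-1.21, adjusted p = 0.00914). As a description, Jun in D was 183% of U in LCL, 242.3% in CLC and 173.7% in CTCFL.

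Junb, a JUN relative with weaker activating function, was in U at 262 to 269 in CTCF, 258 to 396 in CTCFL, 301 to 356 in LCL and 324 to 325 in CLC, and CTCF lay below both chimera lines while CTCFL overlapped the other 3. In LCL it was 243 and 315 in I and 508 and 549 in ID, and in CLC 195 and 222 and 266 and 299. ID lay above I in both lines. The difference of 0.93 (SE 0.16, adjusted p = 8.29e-05) in LCL was just short of the fold part of the call and passed without replicate 2 of LCL I (1.11, adjusted p = 0.000147). In CLC it was 0.43 (SE 0.16, adjusted p = 0.0915). LCL minus CTCFL was called at 1.07 (SE 0.24, adjusted p = 0.000576) with limma, and was 0.89 without replicate 1 of LCL I.

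Ier2, a nuclear protein induced with the FOS and JUN genes, was the member with the highest counts, from 1133 to 2982. It went from 2425 and 2982 in U to 1374 and 1479 in I and 2297 and 2297 in ID of LCL. In CLC it went from 2606 and 2529 to 1178 and 1456 and 1703 and 1561. I lay below U in all 4 lines without overlap, at -0.92 (SE 0.10, adjusted p = 5.52e-07) in LCL, -0.97 (SE 0.11, adjusted p = 0.000260) in CLC, -0.50 (SE 0.08, adjusted p = 0.000292) in CTCF and -0.35 (SE 0.08, adjusted p = 0.00165) in CTCFL with limma. All 4 passed the adjusted p, and none reached the fold part of the call. Without replicate 1 of LCL U (-1.06, adjusted p = 7.54e-07) or replicate 2 of CLC I (-1.12, adjusted p = 4.13e-05) they did. For ID versus I, Ier2 was 0.69 (SE 0.10, adjusted p = 1.71e-05) in LCL and 0.90 (SE 0.13, adjusted p = 3.57e-06) in LCL minus CTCFL.

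Ier3, a regulator of cell survival and not a DNA-binding factor, had counts of 447 and 331 in U, 603, 770.2 and 832 in I and 377, 364 and 387 in the libraries labelled ID of CTCF. In CTCFL it was 271, 275 and 229.9 in U, 340.4, 311 and 323 in I, 145, 157 and 82.4 in D and 169 and 207 in ID, and in LCL 359 and 378 in I and 395 and 470.3 in ID. In both parent lines I was highest and ID lay below it, and in LCL ID lay above I. ID versus I was -0.95 (SE 0.13, adjusted p = 8.24e-05) in CTCF and -0.79 (SE 0.23, adjusted p = 0.00861) in CTCFL, short of the fold part, and LCL lay above CTCF by 1.18 (SE 0.27, adjusted p = 0.00106) and above CTCFL by 1.02 (SE 0.29, adjusted p = 0.00558) with limma. The comparison with CTCFL was lost without any 1 of 5 libraries (0.87 to 1.05, adjusted p = 0.0118 to 0.0392), which were replicate 1 of CTCFL I and ID, both of LCL I and replicate 2 of LCL ID, and with no filter on low values (adjusted p = 0.0126). The comparison with CTCF was lost without replicate 2 of LCL ID (1.05, adjusted p = 0.0104).
In the CTCF line, Ier3 was called without replicate 1 of I in I versus U (1.05, adjusted p = 1.02e-05) and in ID versus I (-1.09, adjusted p = 6.25e-06), and in I versus U without replicate 1 of U (1.13, adjusted p = 0.000212). In CLC, I versus U was 0.98 (SE 0.20, adjusted p = 0.00477) with limma and was not called. It was called with TMM rescaling in limma (1.01, adjusted p = 0.00414) and with edgeR (1.01, adjusted p = 0.00411). Without replicate 1 of I it was 1.12.

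**Figure D3:**
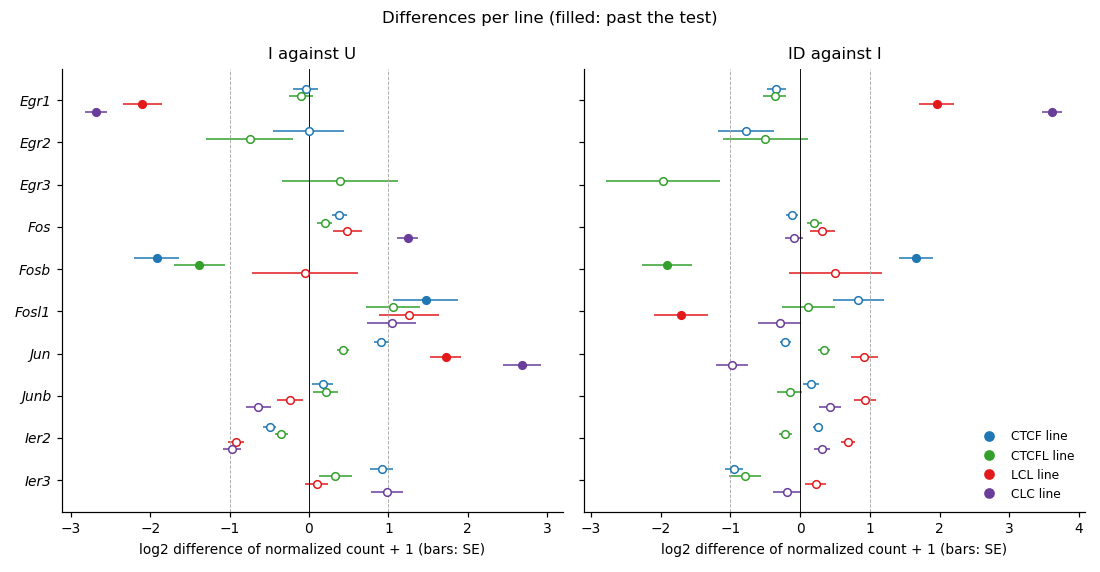
Log2 difference of normalised count + 1 (x axis, bars are the standard error) for each gene and line, for I versus U on the left and ID versus I on the right; filled points passed the limma test and dashed lines mark a log2 difference of 1. Egr1 lies near 0 on the left for CTCF and CTCFL and at -2.10 and -2.68 for LCL and CLC, which are at 1.96 and 3.62 on the right.

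Counted over the members, I versus U called 2 of the 9 tested in CTCF, against 10.9% of all genes, 1 of 10 in CTCFL (9.58%), 2 of 8 in LCL (9.58%) and 3 of 7 in CLC (12.8%). ID versus I called 1 of 9 in CTCF (5.06%), 1 of 10 in CTCFL (7.83%), 2 of 8 in LCL (8.49%) and 1 of 7 in CLC (1.95%). The genes tested in a line are those that passed the filter, so that these shares are not of all 10. For the libraries labelled D against U in CTCF, limma called 0 of 9 (0.455% of all genes), with 2 at an unadjusted p under 0.05 and 0 by edgeR and by DESeq2. Median log2 differences over the members tested for I versus U were 0.17 in CTCF, 0.20 in CTCFL, 0.02 in LCL and 0.98 in CLC, and those of all genes tested lay between 0.00 and 0.04.

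For the difference of ID versus I between lines, 3 of 9 members were called in LCL minus CTCFL, against 12% of 16480 genes, 3 in CLC minus CTCFL (13.9%), 4 in LCL minus CTCF (10.5%) and 1 in CLC minus CTCF (10.9%). CTCF minus CTCFL called 1 (3.08%) and CLC minus LCL called 2 (7.33%). For I versus U the counts were 2 in LCL minus CTCFL (2.86%), 3 in CLC minus CTCFL (3.63%), 1 in LCL minus CTCF (1.83%) and 2 in CLC minus CTCF (2.93%). Limma called 0 in CTCF minus CTCFL (0.370%), with 2 at an unadjusted p under 0.05 and 0 by edgeR and DESeq2, and 0 in CLC minus LCL (1.09%), with 5 unadjusted and 1, Jun, by each of edgeR and DESeq2. Differences that share a line share its libraries.

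Genes known for feedback on ERK are given beside the members, and ERK activity itself was not measured. Counts for this list and those that follow stand against the shares of all genes called. For I versus U these were 10.9% in CTCF, 9.58% in CTCFL, 9.58% in LCL and 12.8% in CLC. For ID versus I they were 5.06%, 7.83%, 8.49% and 1.95% in the same order. Of 13 such genes, I versus U called 2 lower and 1 higher in LCL, 3 lower and 1 higher in CLC, and 1 lower in CTCF, with medians of -0.17, -0.77 and -0.25. In CTCFL limma called 0, with 6 at an unadjusted p under 0.05, 0 by edgeR and by DESeq2 and a median of 0.05. Spry4, an inhibitor of receptor tyrosine kinase signalling, went from 123 and 132 in U to 6.41 and 10.5 in I of LCL and from 218 and 214 to 1.79 and 3.54 in CLC. It fell by 3.80 on the log2 scale (SE 0.44, adjusted p = 9.47e-07) and by 5.93 on the log2 scale (SE 0.36, adjusted p = 1.43e-05), with limma. Dusp6, the phosphatase of ERK itself, went from 415 and 458 to 79.8 and 111 in LCL and from 643 and 663 to 94.8 and 60.2 in CLC, and fell by 2.20 on the log2 scale (SE 0.23, adjusted p = 2.62e-07) and 3.09 on the log2 scale (SE 0.20, adjusted p = 1.84e-05). Spred1 also fell in CLC, and Phlda1 rose in LCL and CLC. In ID versus I, Dusp6 and Spred3 rose in CLC and Dusp4 in CTCFL, while limma, edgeR and DESeq2 called 0 of the 13 in CTCF (8 unadjusted) and in LCL (6 unadjusted).

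In the CTCF line Dusp6 went from 122 and 92.8 to 61.0, 43.2 and 53.6 and fell by 1.02 on the log2 scale (SE 0.21, adjusted p = 0.00141). The difference between lines was called for Dusp6 in LCL minus CTCFL, CLC minus CTCFL and CLC minus CTCF. For Spry4 it was called in CLC minus CTCFL and CLC minus CTCF. Spry4 was low already in U of the parent lines, with means of 36.6 in CTCF and 26.7 in CTCFL. In I its means were lower there too, at 16.5 and 11.1, and it was not called in either line. Egr1 returned to U or above it in ID of LCL and CLC, whereas Spry4 in ID was 9.42 and 26.8 in LCL and 8.28 and 6.38 in CLC, far below U. Dusp6 in ID was 94.2 and 167 in LCL and 169 and 163 in CLC, and rose over I in CLC by 1.12 (SE 0.20, adjusted p = 0.00821). As a description, in D, where Egr1 lay above U, Dusp6 was 271 and 299 in LCL and 399 and 423 in CLC, below U in both.

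**Figure D4:**
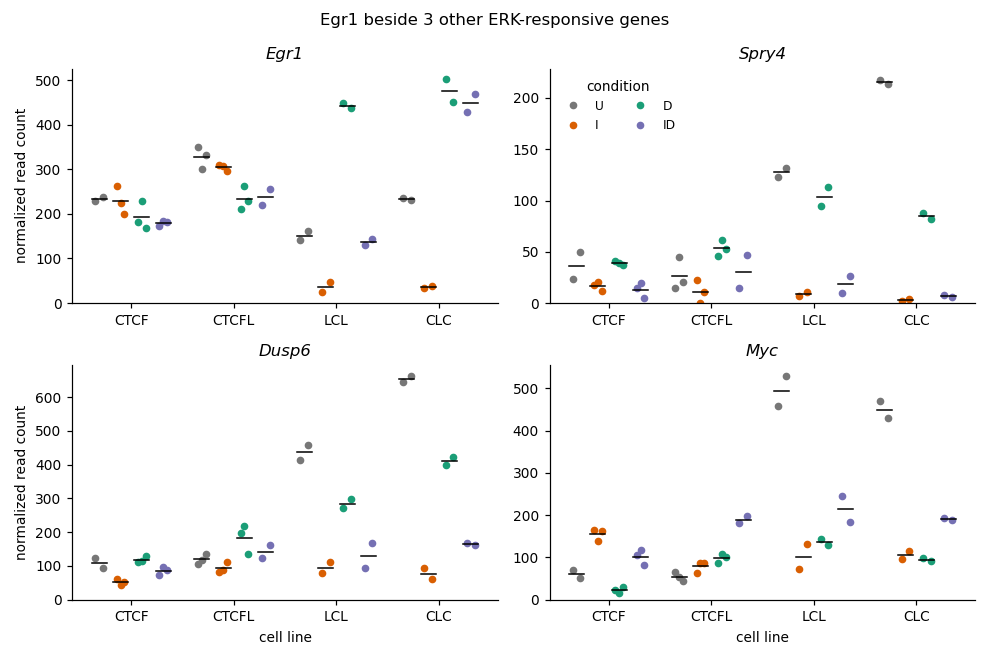
Normalised read counts of Egr1, Spry4, Dusp6 and Myc in every library (points) with group means (bars), by cell line on the x axis and condition by colour, each panel from 0. All 4 genes are lower in I than in U of LCL and CLC, and Egr1 alone among them lies above U in D of these lines.

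Of 22 other immediate early genes, I versus U called 1 of 20 tested in LCL (Myc lower), 4 of 20 in CLC (Atf3, Btg2 and Ctgf higher, Myc lower) and 2 of 19 in CTCF (Ctgf and Myc higher). In CTCFL limma called 0 of 21, with 7 unadjusted and 0 by edgeR and DESeq2. ID versus I called 1 of 19 in CTCF (Fosl2 lower), 2 of 21 in CTCFL (Myc higher, Ctgf lower), 3 of 20 in LCL (Atf3, Cyr61 and Myc higher), and by limma, edgeR and DESeq2 0 of 20 in CLC, with 7 unadjusted. Myc, the growth regulator, was 459.5 and 529 in U and 71.6 and 131 in I of LCL, 469 and 431 and 96.6 and 114 in CLC and 70.2 and 51.9 and 165, 139 and 162 in CTCF. It fell by 2.33 on the log2 scale (SE 0.23, adjusted p = 1.42e-07) in LCL and fell by 2.09 on the log2 scale (SE 0.16, adjusted p = 3.39e-05) in CLC and rose by 1.34 (SE 0.25, adjusted p = 0.000737) in CTCF, with limma, and all 4 differences between a chimera and a parent line were called. Ctgf, a matrix-associated growth factor, rose after IAA by 1.503 (SE 0.10, adjusted p = 1.27e-07) in CTCF and fell in ID versus I by 1.42 on the log2 scale (SE 0.10, adjusted p = 2.92e-10) in CTCFL.

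Of 14 regulators of the pathway, Elk3, a partner of SRF, was the 1 called in I versus U, lower in CTCFL, LCL and CLC. It was 241 and 316 in U and 126 and 84.9 in I of LCL, 335 and 368 and 123 and 155 in CLC and 473, 529.7 and 483 and 242, 158 and 219 in CTCFL. In CTCF it was 403 and 388 and 212, 245 and 288, where limma called 0 of the 14, with 4 unadjusted and 0 by edgeR and DESeq2. Srf, Elk1, Elk4, Nab1 and Nab2 were called in no I versus U or ID versus I comparison of a line. For ID versus I, Elk3 and Mkl1 fell in CTCFL and Mkl2 fell in LCL. Nab2, a corepressor of EGR proteins, was higher in CLC minus CTCFL by 1.58 (SE 0.23, adjusted p = 2e-06), in LCL minus CTCFL by 1.26 (SE 0.23, adjusted p = 6.16e-05) and in CLC minus CTCF by 1.26 (SE 0.22, adjusted p = 3.2e-05). It was 327 and 448 in I and 589.8 and 566 in ID of CLC, and 321, 249 and 310.4 and 167 and 129 in CTCFL.

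Of the 10 pluripotency genes, Esrrb and Sox2 fell after IAA in CTCF and Utf1 in LCL and in CLC. Of the markers of other cells, Cdx2 rose (2.26 (SE 0.45, adjusted p = 0.00118), from 3.19 and 2.21 in U to 12.6, 20.4 and 17.6 in I) and Sox1 fell in CTCF, Gata6 rose in LCL, and Gata6 and Col1a1 rose and Sox1 fell in CLC, of 7 to 10 tested. In ID versus I, Thy1 fell in LCL by 1.19 on the log2 scale (SE 0.20, adjusted p = 6.71e-05) and Col1a1 in CLC by 1.04 on the log2 scale (SE 0.18, adjusted p = 0.00761). In CTCFL, Tfcp2l1, of the pluripotency genes, fell by 1.06 on the log2 scale (SE 0.12, adjusted p = 2.65e-07) and Sox1 fell by 1.71 on the log2 scale (SE 0.22, adjusted p = 1.88e-06). Of 8 stress genes, 4 were called after IAA in CTCF (10.9% of all genes), 3 in LCL (9.58%) and 2 in CLC (12.8%). In CTCFL limma, edgeR and DESeq2 called 0 of the pluripotency genes, the markers of other cells and the stress genes after IAA, with 8, 7 and 6 at an unadjusted p under 0.05. Chac1, of the integrated stress response, fell in these 3 lines, by 2.34 on the log2 scale (SE 0.10, adjusted p = 3.6e-09) in CTCF, and Hspa1a, whose reads are hard to tell from those of its copy Hspa1b, rose in all 3. In ID versus I, Chac1 rose in LCL by 1.44 (SE 0.21, adjusted p = 1.63e-05) and in CLC by 2.42 (SE 0.27, adjusted p = 0.00173), and Trib3 rose in CTCF. Ddit3 rose in LCL by 1.35 (SE 0.27, adjusted p = 0.000462), in CTCF by 1.57 (SE 0.11, adjusted p = 4.76e-07) and in CTCFL by 1.52 (SE 0.11, adjusted p = 4.44e-10). Dusp4, a nuclear ERK phosphatase, rose in CTCFL by 2.04 (SE 0.23, adjusted p = 4.87e-07). The part of other cells and of stress in the members' differences was not tested, and in bulk samples fewer cells with a transcript and less RNA per cell cannot be told apart.

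Genes much like Egr1 over the 38 libraries, after the mean of each line was subtracted, included Cdh6 (Pearson r = 0.74), Dnajc11 (0.74), Lrrk1 (0.74) and Cyb5b (0.72). Cdh6 and Lrrk1 had few reads in the chimera lines, with counts of 0 to 0.89 and 0.89 to 1.77 in CLC I. Among the members, Junb (0.59) and Ier2 (0.54) came closest and Jun was furthest in the opposite direction (-0.42). Dusp6 stood at 0.55 and Spry4 at 0.48. The points share their lines and treatments, and the values are a description.

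FLAG ChIP-seq in the D and ID conditions gave the places where the transgenic proteins were found. A site was counted where peaks of both replicates overlapped by at least 1 base and the middle of their union lay within 3 kb of an annotated start site. Egr1 had a site in all 8 sets, 230 to 555 bases downstream of its nearest start site, with fold enrichments over local background of 8.04 and 5.45 in CTCF D and 11.2 and 12.3 in CTCF ID, where each pair gives the replicates. For CTCFL the D values were 6.87 and 8.59 and the ID values 10.8 and 8.63. They were 5.72 and 6.02 in LCL D, 5.98 and 5.21 in LCL ID, 6.13 and 5.56 in CLC D and 6.32 and 9.62 in CLC ID. All 4 proteins were thus found at the start of Egr1, also in the lines where its RNA was called in no comparison.

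Of the 10 members, 6 had a FLAG site in CTCF D, against 38.9% of 16107 expressed genes, 5 in CTCF ID (30.6%), 8 in CTCFL D (43.2%), 7 in CTCFL ID (40.6%), 8 in LCL D (40.2%) and 8 in LCL ID (51.6%). In CLC there were 2 in D, Egr1 and Junb (9.78%), and 5 in ID (27.0%), with Fosb, Jun and Ier2 added. Jun had a site between -1166 and -1019 bases from its start (negative is upstream) in all sets but CLC D, and Fosb one between -577 and -486 bases in the same 7. Fos had one in CTCFL and LCL, between -1506 and -1349 bases, Egr3 in CTCF D and LCL, and Ier3 in CTCFL alone, 1823 and 1930 bases downstream. Fosl1 had none in any set.

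The CTCF core shown above for Junb lay in its site in all 8 sets, and that of Egr2 in its sites in CTCF D and ID, CTCFL D and LCL D and ID. These sites were 474 to 1883 bases long. In 300-base windows at the FLAG summits the core was found at Junb in both replicates of all 8 sets and at Egr2 in 7 of 10 replicates, not in CTCFL D replicate 2, LCL D replicate 1 and LCL ID replicate 2. Of such windows at all FLAG summits, 19.3% to 45.9% held the core. The sites at Egr1, Egr3, Fos, Fosb, Jun, Ier2 and Ier3 held no match in those windows. RAD21, a cohesin subunit, had a site in both replicates near 1 member, Jun in CTCF D. It lay at -1178 bases, within the FLAG site, at 4.04 and 4.05 times the background and a -log10 q of 2.67 and 1.41. Shares over all expressed genes were 0.137% to 3.16%, and replicates listed between 168 and 22773 RAD21 peaks.

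**Figure D5:**
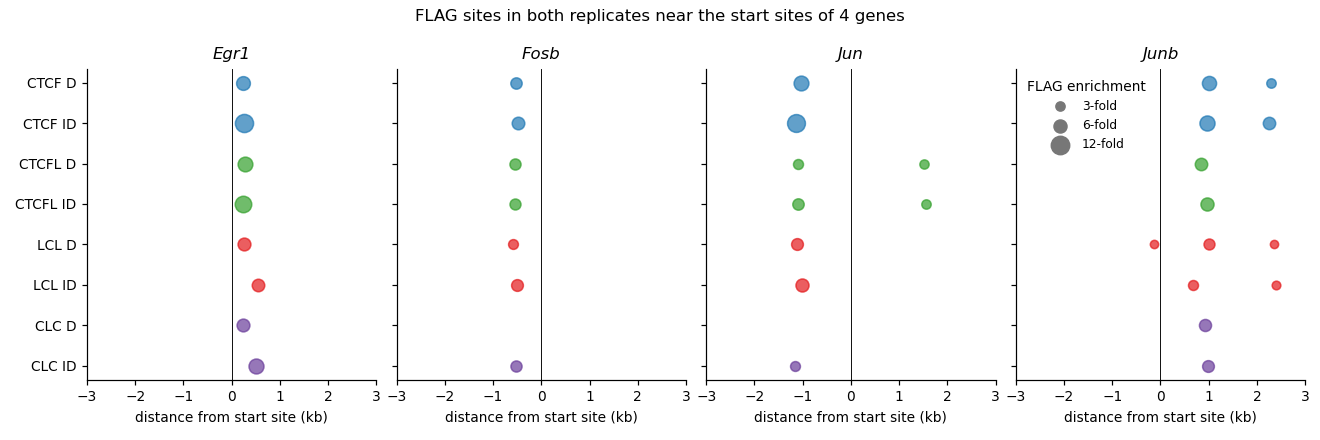
Middle of FLAG sites found in both replicates (x axis, kb from the nearest start site, negative upstream) at Egr1, Fosb, Jun and Junb, by line and condition on the y axis, with the area of a point proportional to the mean fold enrichment. Egr1 and Junb have a site in all 8 sets, and CLC D has none at Fosb or Jun.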

How the data were processed

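RNA-seq of 38 libraries of the CTCF, CTCFL, LCL and CLC lines and FLAG and RAD21 ChIP-seq of the same lines (D and ID, 2 replicates each) were used. Groups and replicate numbers came from the sample labels. The members and gene lists were chosen with earlier results of these data known.

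The deposited RNA values are a signal: reads per gene, scaled by the authors and written with 2 decimals, after alignment to GRCm38/mm10. A single size factor per library was found in 36 libraries. The submitters' processing notes name Trim Galore 0.4.4, Bowtie2, SAMtools 1.3, HTSeq and deepTools without their roles. A single scaling per library does not correct for length, so levels were compared between genes only per kilobase of merged exon. In 36 libraries whole reads were recovered (100.0% of values of up to 500 reads, tolerance 0.1 of a step), with 6847072 to 49716771 reads per library. Replicate 2 of CTCFL I and of CTCFL ID gave no step and entered no test on reads, which left 1 library of CTCFL ID there. The labels number the replicates of CTCFL ID out of 3, and 2 were analysed here.

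Values were tested as log2(value + 1) with limma 3.58.1 (trend) in R 4.3.3, 1 fit per line over U, I, D and ID, for genes whose mean over the line was at least 10. A fold change on this scale understates the change of low genes. Differences between lines came from 1 fit over the 16 groups with genes of a mean of at least 10 over all libraries. Those of I versus U, of CTCF minus CTCFL and of CLC minus LCL were chosen after the data were seen. Calls needed a log2 difference beyond 1 and p under 0.01 after Benjamini-Hochberg adjustment. Replicate numbers did not pair the samples: deviations from the group means of libraries with the same number correlated between -0.30 and 0.16.

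Alternatives were a pseudocount of 5, no filter, a minimum mean of 50, TMM rescaling, a replicate block, fits of only the compared groups or of every line together, and the omission of each library. On recovered reads, DESeq2 1.42.0 and the quasi-likelihood test of edgeR 4.0.16 were run. For peaks they were a window of 1 kb, a -log10 q of at least 5 and either replicate alone.

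The authors called peaks per replicate with MACS. The fold enrichment ratio of each peak over its local background and its -log10 q are as deposited by the authors, and the peak lists give no reads, so the ChIP depth is unknown. Positions came from GENCODE vM21 (GRCm38), matched by symbol for 48108 of the 52459 genes. Hi-C domains, RNase and mock samples and the CLL and LLC transgenes were not used here. All members were named. Of the other lists, the 4 genes with the largest absolute log2 difference among those called in I versus U or ID versus I of a line were named, with Srf, Elk1, Elk3, Elk4, Nab1, Nab2, Dusp6 and the 5 genes most like Egr1, of which 1 is not reported here. Other names were chosen after their values were seen.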

Additional observations from a re-analysis of the deposited data

Results flagged for a closer look

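Members whose response differed between lines by the test of the difference itself (limma over the 16 groups, adjusted p under 0.01 and a log2 value beyond 1) are gathered here. Values are the log2 difference in the line named first minus that in the line named second.

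Egr1 was called in 9 of the 12 comparisons. For I versus U it was -2.64 in CLC minus CTCF, -2.58 in CLC minus CTCFL, -2.06 in LCL minus CTCF and -2.00 in LCL minus CTCFL. For ID versus I it was 3.96 in CLC minus CTCF, 3.98 in CLC minus CTCFL, 1.66 in CLC minus LCL, 2.30 in LCL minus CTCF and 2.32 in LCL minus CTCFL.

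Jun was called in 6. For I versus U it was 1.77 in CLC minus CTCF, 2.25 in CLC minus CTCFL and 1.29 in LCL minus CTCFL. For ID versus I it was -1.32 in CLC minus CTCFL, -1.90 in CLC minus LCL and 1.13 in LCL minus CTCF, so that Jun and Egr1 had the same sign in LCL minus CTCF and opposite signs in both other comparisons.

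The remaining 5 genes had 7 calls. Fos was at 1.05 in CLC minus CTCFL for I versus U, and under 1 without replicate 3 of CTCFL I (0.95) or replicate 1 of CLC I (0.99). All others were for ID versus I. Fosb was at 3.42 in CLC minus CTCFL and at 3.57 in CTCF minus CTCFL. The former was lost without replicate 2 of CTCFL ID (3.27, adjusted p = 0.0110), of CLC ID (3.07, adjusted p = 0.0167) or of CLC I (1.49, adjusted p = 0.0712) and with edgeR on recovered reads (2.39, adjusted p = 0.0389), and Fosb did not pass the filter in CLC. The latter was lost without replicate 2 of CTCFL ID (3.42, adjusted p = 0.0129). Fosl1 was at -2.54 in LCL minus CTCF, and at -2.08 (adjusted p = 0.0102) without replicate 1 of LCL I. Ier3 was at 1.18 in LCL minus CTCF and at 1.02 in LCL minus CTCFL, lost in the former without replicate 2 of LCL ID (1.05, adjusted p = 0.0104) and in the latter without any of 5 libraries, replicate 1 of CTCFL I and ID, both of LCL I and replicate 2 of LCL ID (0.87 to 1.05), or with no filter on low values (adjusted p = 0.0126). Junb was at 1.07 in LCL minus CTCFL and at 0.89 without replicate 1 of LCL I.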

How the results depend on the processing

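Egr1 was called in I versus U and ID versus I of LCL and CLC under all 17 alternatives of each line (-2.51 to -1.69 and 1.55 to 2.37 in LCL, -2.75 to -2.56 and 3.48 to 3.68 in CLC), and its 9 differences between lines under all 23 or 26 alternatives of each. Of 1219 alternative values of single members, 35 lost a call, 42 gained one and 6 changed direction, the 6 in uncalled differences of Fosb with the CLC line, where replicate 2 of I was listed at 0. For I versus U in CLC minus CTCFL these were 0.40 with a pseudocount of 5, 0.43 with edgeR, 0.39 with DESeq2 and 1.38 without replicate 2 of CLC I, against -0.54. In CLC minus LCL, omission of that library gave 0.049 for I versus U, against -1.88, and -0.92 for ID versus I, against 1.00. Without replicate 1 of CLC I the same 3 differences were called, at -2.47, -3.80 and 2.93. The cause was not tested.

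Counts of called members moved as follows. I versus U in CTCF was 1 instead of 2 with a pseudocount of 5, no filter, a minimum mean of 50, TMM, only the compared groups, edgeR and the replicate block (Fosl1 1.60, adjusted p = 0.0110), and 1 to 2 without single libraries. The replicate block moved no other count by over 1.5 times, and numbers did not pair the samples. ID versus I in CTCF was 0 instead of 1 with all 4 lines in 1 fit (Fosb 1.66, adjusted p = 0.0129) and 1 to 2 without single libraries. I versus U in CTCFL was 2 with only the compared groups (Fosl1) instead of 1, 0 with all 4 lines in 1 fit (Fosb -1.38, adjusted p = 0.0312), and 0 to 2 without single libraries. LCL minus CTCFL for ID versus I was 5 instead of 3 with a pseudocount of 5, edgeR or DESeq2 (Fosl1 in each, Fosb or Ier2 besides) and 1 to 4 without single libraries. CTCF minus CTCFL was 0 instead of 1 with a minimum mean of 50, where Fosb was not tested, and 0 to 1 without single libraries. CLC minus LCL for I versus U was 1 (Jun) instead of 0 with edgeR or DESeq2 and 0 to 2 without single libraries.

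Without single libraries, ID versus I ranged from 1 to 4 in LCL (4 without replicate 2 of I), 1 to 2 in CTCFL (Egr3 added without replicate 2 of ID), 1 to 2 in CLC (Jun added without replicate 1 of I) and 1 to 2 in CLC minus CTCF (Egr2 added without replicate 1 of CLC I). I versus U in LCL minus CTCF ranged from 1 to 2 (Jun added without replicate 2 of LCL U). The share of all genes called in ID versus I of CLC, 299 of 15337, also depended on the setting. The number was 3 with only the compared groups, 164 with the replicate block and 483 with DESeq2. It was 620 of 16480 with all 4 lines in 1 fit.

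Of FLAG sites within 1 kb, members had 3 in CLC ID instead of 5, 3 in CTCF D instead of 6, 4 in CTCFL D instead of 8, 3 in CTCFL ID instead of 7, 5 in LCL D and 4 in LCL ID instead of 8. At a -log10 q of at least 5, CLC ID had 2. RAD21 in CTCF D was 0 instead of 1 under both, and with either replicate alone the RAD21 count was 1 to 4 in CTCF D, 0 to 2 in CLC D, 0 to 3 in CTCFL D and 0 to 4 in LCL D.

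Low counts of Egr2 and Egr3, and of Fosb in LCL and CLC, limit the precision of their values at this depth, and the smallest detectable difference was not measured.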
